A study of Mus musculus with 46 samples.

Results

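RNA of the gastrocnemius, a calf muscle built mainly from fast fibres, was compared between male mice without alpha-actinin-3 (*Actn3* knockout, KO) and wild-type mice (WT), all with their testes in place. The comparison holds the 6 KO-sham and the 6 WT-sham mice, chosen by their genotype and treatment labels, which are 12 of the 46 samples of the series. All 12 were C57BL6 mice, underwent surgery at an age of 8 to 10 weeks with buprenorphine and isoflurane, and were killed 12 weeks afterwards. The sham operation removed no tissue, and both genotypes carry the same surgery and the same drugs. The labels give the genotype only as KO or WT and do not describe the allele. The comparison describes how KO muscle differs from WT muscle before androgens are removed.

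Other mice of the series served for reference. Gastrocnemius came from 6 WT and 5 KO males whose testes had been removed (orchidectomy, ORX) at the same age and for the same time. Spinalis, a muscle of the back, came from females of the same strain that received an implant at 4 to 5 weeks of age for 6 weeks. The implant was empty in 5 WT and 5 KO mice and held 10 mg of dihydrotestosterone (DHT), a potent androgen, in 6 WT mice.

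Alpha-actinins cross-link actin filaments at the Z-disc, the plate that bounds each sarcomere. Fast fibres hold alpha-actinin-3 beside alpha-actinin-2, and slow fibres hold alpha-actinin-2 alone. Many healthy people lack alpha-actinin-3 because of a common stop codon. Both proteins bind structural partners such as myotilin, ZASP and the calsarcins, as well as metabolic enzymes and the calcineurin pathway, and muscle without alpha-actinin-3 is known for a more oxidative metabolism.

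Total counts on genes were between 43.4 and 50.3 M (median 47.1 M) in the WT-sham libraries and between 29.5 and 37.5 M (median 34.3 M) in the KO-sham libraries. Each KO-sham library was smaller than each WT-sham library, so depth and genotype cannot be told apart by the counts alone. After all libraries were thinned to the smallest total, 865 genes differed in place of 928, and 812 were shared. Expression is given as CPM, read counts scaled to the library size after TMM normalization. The value q comes from edgeR, by Benjamini-Hochberg (BH) adjustment of its quasi-likelihood p over the 17514 genes tested, and a gene is said to rise or fall in KO-sham mice where q is at most 0.01. Precision was set by the depth and by the spread between mice, and the standard error (SE) of each log2 fold change covers both.

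Along the first principal component of the 12 sham libraries (21.1% of the variance), KO-sham mice lay between −31.5 and −7.57 and WT-sham mice between 12.7 and 28.0. The genotypes were fully apart on this axis. On the second component (12.3%), KO-sham mouse 1 had the highest value of its group (38.0) and WT-sham mouse 5 that of its own (10.8). WT-sham mouse 5 also had the highest summed level of fibroblast and of tendon markers in its group. Without this mouse 690 genes differed between the genotypes, 678 of them shared with the full set, and without KO-sham mouse 1 there were 882, of which 777 were shared.

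KO-sham mice differed from WT-sham mice in 928 of the 17514 genes (5.3%), with 434 higher (2.48%) and 494 lower (2.82%) in KO-sham mice. Counts in the gene lists below are to be set beside these shares. Most of the changes were small, with a median of 1.25-fold among the higher and 1.35-fold among the lower genes. A change of at least 2-fold was found for 35 higher and 66 lower genes, and 687 of the 928 changed less than 1.5-fold. For 640 of the 928 genes the values of the 6 KO-sham and the 6 WT-sham mice did not overlap, as was the case for 893 of all genes (5.1%). Protein-coding genes made up 849 of the 928. At an unadjusted p under 0.05, 4082 genes differed. The median log2 fold change over all genes was −0.0069, the value beside which the medians of gene lists are set below. Scaling moves all genes alike, and this median was −0.030 with library-size and 0.0079 with upper-quartile scaling. List medians under those scalings are to be set beside these values, and a change of their sign alone shows no change of the list.

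*Actn3* itself matched the genotype labels in all 12 mice. Its level lay between 5977 and 7052 CPM (median 6724) in WT-sham mice and between 35.8 and 54.7 CPM (median 46.5) in KO-sham mice. No KO-sham mouse reached the WT-sham range, and the RNA was 145-fold lower (log2 fold change −7.18, SE 0.12, q = 2.7e-25). The reads left in KO-sham mice stood at a median of 16.04 CPM per kb of exon, against 2318 in WT-sham mice. On the same scale *Actn2*, the gene of the isoform shared by all fibres, stood at 83.5 CPM per kb in WT-sham and 98.6 in KO-sham mice, so that it was the most abundant alpha-actinin RNA of the KO muscle. *Actn2* lay between 244 and 383 CPM (median 317) in WT-sham mice and between 336 and 445 CPM (median 374) in KO-sham mice. The ranges overlapped, and the difference did not pass the test (log2 fold change 0.29, SE 0.10, q = 0.076). *Actn1* and *Actn4*, which encode the alpha-actinins of cells other than muscle fibres, were at 1.399 and 3.200 CPM per kb in WT-sham mice and did not pass either (log2 fold changes −0.28 and −0.064). Thus 1 of the 4 alpha-actinin genes differed, *Actn3*. The values of *Actn4* were close to equal, and the sign of its difference changed to 0.0033 without WT-sham mouse 4.

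Of 45 tested genes for proteins of the Z-disc and the costamere, the attachment of the Z-disc to the membrane, 6 rose and 3 fell, with a median log2 fold change of 0.091 that was 0.040 without KO-sham mouse 1. *Myot*, the gene of the alpha-actinin and filamin partner myotilin, lay between 709 and 865 CPM (median 784) in WT-sham mice and between 1041 and 1249 CPM (median 1182) in KO-sham mice. All KO-sham mice were above all WT-sham mice, a rise of 1.48-fold (log2 fold change 0.56, SE 0.061, q = 5.7e-07). *Xirp2*, which encodes an actin-binding Xin repeat protein, was among the abundant RNAs of the list and lay between 4195 and 4802 CPM (median 4372) in WT-sham mice and between 5281 and 5856 CPM (median 5658) in KO-sham mice. It also rose without overlap, by 1.26-fold (log2 fold change 0.33, SE 0.044, q = 8.6e-06). *Myoz3*, which encodes a calsarcin of fast fibres that binds alpha-actinin and calcineurin, rose 1.31-fold (log2 fold change 0.39, SE 0.054, q = 1.4e-05), from 69.3 CPM in WT-sham and 92.1 CPM in KO-sham mice at the median, and here too the groups were apart. The largest rise of the list was that of *Ankrd23*, the gene of a titin-binding ankyrin repeat protein, which lay between 39.9 and 57.7 CPM (median 46.3) in WT-sham mice and between 76.6 and 97.5 CPM (median 85.8) in KO-sham mice. The groups were apart, with a log2 fold change of 0.88 (SE 0.12, q = 1.9e-05). *Ldb3*, whose product ZASP binds alpha-actinin through its PDZ domain, rose 1.24-fold with overlapping ranges (q = 0.00099). *Cap2*, for an actin-regulating protein, rose 1.17-fold, and missed the threshold without WT-sham mouse 5 (log2 fold change 0.20, q = 0.010).

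The 3 genes of this list that fell were *Smtnl2*, *Des* and *Vcl*. *Smtnl2*, a smoothelin-like gene, lay between 331 and 429 CPM (median 371) in WT-sham mice and between 204 and 272 CPM (median 255) in KO-sham mice. The groups did not overlap, and the gene fell 1.53-fold (log2 fold change −0.61, SE 0.077, q = 4.3e-06). *Des*, which encodes the intermediate filament protein desmin, was lower by 1.22-fold with KO-sham mouse 1 inside the WT-sham range (q = 0.0015). *Vcl*, for the membrane anchor vinculin, had a log2 fold change of −0.33 (q = 0.0036) that missed the threshold without KO-sham mouse 3, 4 or 6 or WT-sham mouse 5 (q between 0.011 and 0.013). *Igfn1*, whose product lies at the Z-disc region, was picked by the size of its change and lay between 7.21 and 17.8 CPM (median 11.6) in WT-sham mice and between 0.845 and 4.13 CPM (median 1.78) in KO-sham mice. The groups were apart, and it fell 5.45-fold (q = 1.9e-06). *Ttn*, the gene of the giant protein that runs from the Z-disc to the middle of the sarcomere, lay between 83549.6 and 129266 CPM (median 91992) in WT-sham mice and between 78389 and 181637 CPM (median 97201) in KO-sham mice. Its ranges overlapped widely, with a log2 fold change of 0.20 (q = 0.45) that was −0.0026 without KO-sham mouse 1.

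**Figure D1:**
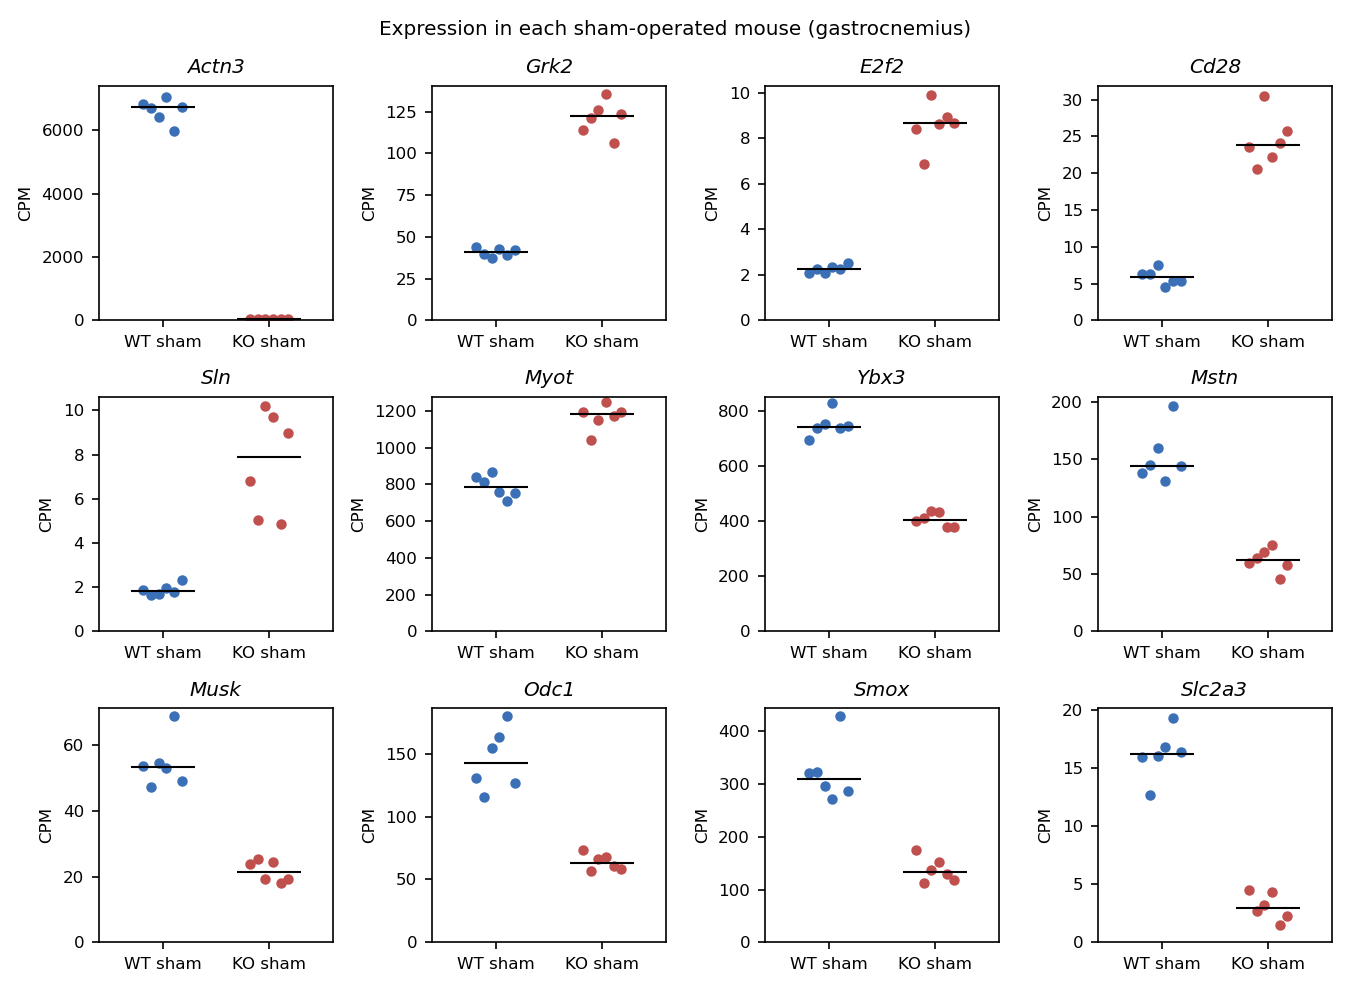
Expression of 12 genes in CPM (vertical axes, starting at 0) for each of the 6 WT-sham (blue) and 6 KO-sham (red) mice, with the group median as a line. In all 12 panels the groups are apart, as for *Grk2* between 37.3 and 43.7 CPM in WT-sham and between 106 and 135 CPM in KO-sham mice.

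Among 15 fast sarcomere genes, 1 rose (*Mybph*) and 1 fell (*Actn3*), with a median log2 fold change of −0.0062 that was 0.0079 with upper-quartile scaling and 0.019 without KO-sham mouse 5. *Myh4*, which encodes the myosin heavy chain of the fastest fibres, lay between 43594 and 59990.4 CPM (median 46141) in WT-sham mice and between 35761 and 64647 CPM (median 41950.3) in KO-sham mice. The groups overlapped and the gene did not pass (log2 fold change −0.10, q = 0.67). Among 15 slow sarcomere genes, *Sln* rose and 0 fell, and the median was 0.21. Leaving out 1 mouse moved this median between 0.034 (without KO-sham mouse 2) and 0.29 (without WT-sham mouse 2). *Myh7*, which encodes the slow myosin heavy chain, was at 129 CPM in WT-sham and 145 CPM in KO-sham mice at the median, without a difference that passed (log2 fold change 0.16, q = 0.67).

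*Mybph* and *Sln* stood out by the size of their rise. *Mybph*, the gene of myosin binding protein H, lay between 3.54 and 26.4 CPM (median 14.9) in WT-sham mice and between 39.6 and 81.7 CPM (median 53.9) in KO-sham mice. The lowest KO-sham mouse was above the highest WT-sham mouse, and the log2 fold change was 1.89 (SE 0.27, q = 2.3e-05). Its exons overlap *Adora1* on the opposite strand, which rose as well (log2 fold change 1.18), and it is not stated whether the counting used the strand. *Sln*, the gene of sarcolipin, a small inhibitor of the calcium pump of the sarcoplasmic reticulum, lay between 1.64 and 2.31 CPM (median 1.83) in WT-sham mice and between 4.87 and 10.2 CPM (median 7.899) in KO-sham mice. Again the groups were apart, with a 4.04-fold rise (log2 fold change 2.01, SE 0.24, q = 1.9e-06). Per length, *Sln* rose from 1.39 to 5.99 CPM per kb, and thus stayed far under *Myh4* (7669.7 and 6973 CPM per kb).

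*Acta1*, the skeletal actin gene, lay between 16423 and 17716 CPM (median 17403) in WT-sham mice and between 12803 and 14486 CPM (median 13290.3) in KO-sham mice. No KO-sham mouse reached the WT-sham range, a fall of 1.29-fold (log2 fold change −0.37, SE 0.056, q = 5.8e-05). Of 10 genes of developmental and stretched muscle, 3 fell and 0 rose, with a median log2 fold change of −0.51. *Nmrk2*, for a muscle nicotinamide riboside kinase, lay between 122 and 189.7 CPM (median 146) in WT-sham mice and between 67.9 and 92.4 CPM (median 76.3) in KO-sham mice. It fell 1.96-fold without overlap (log2 fold change −0.97, SE 0.13, q = 1.1e-05). *Actc1*, the cardiac actin that skeletal muscle makes early in development, fell 1.81-fold from 47.6 CPM in WT-sham and 28.3 CPM in KO-sham mice at the median (q = 0.0033), and missed the threshold without WT-sham mouse 2 (log2 fold change −0.73, q = 0.012). *Myl4*, the embryonic and atrial light chain of myosin, had a log2 fold change of −0.93 (q = 0.00082), with KO-sham mouse 2 inside the WT-sham range.

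Calcium handling shifted in a few members. Of 36 genes for calcium release and reuptake, 2 rose (*Sln* and *Hrc*) and 5 fell, with a median log2 fold change of 0.0002, which was −0.024 with library-size scaling and −0.035 without KO-sham mouse 1. *Itpr1*, which encodes an inositol trisphosphate receptor, a calcium channel of internal stores, lay between 102 and 125 CPM (median 109) in WT-sham mice and between 65.7 and 76.01 CPM (median 70.4) in KO-sham mice. No KO-sham mouse reached the WT-sham range, and the gene fell 1.57-fold (log2 fold change −0.65, SE 0.058, q = 1.5e-08). Its exons overlap predicted genes on the opposite strand. *Cacng1*, the gamma subunit of the voltage sensor of excitation-contraction coupling, lay between 151 and 173 CPM (median 163) in WT-sham mice and between 117 and 133 CPM (median 127) in KO-sham mice. The fall of 1.296-fold was small and clear of overlap (log2 fold change −0.37, SE 0.045, q = 2.3e-06). *Cacna1s*, the pore-forming subunit of the same sensor, fell 1.19-fold (q = 0.0045) and kept its call in 5 of 12 fits with 1 mouse left out (log2 fold changes −0.30 to −0.23). *Mrln*, which encodes myoregulin, a small inhibitor of the calcium pump, fell 1.49-fold from 75.6 CPM in WT-sham and 49.1 CPM in KO-sham mice at the median (q = 0.0011), the opposite direction to *Sln*. *Hrc*, for a calcium-binding protein of the reticulum, rose 1.21-fold (q = 0.0025).

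Calcineurin is a calcium-dependent phosphatase that acts on NFAT factors and is bound by calsarcins. Of 19 genes of this pathway 2 rose and 0 fell, beside a median log2 fold change of −0.051 (−0.0029 without KO-sham mouse 6). With library-size scaling 0 rose. The regulatory subunit gene *Ppp3r1* rose 1.18-fold (log2 fold change 0.24, SE 0.047, q = 0.0011), and lost its call with library-size scaling (q = 0.016). The catalytic subunit gene *Ppp3ca* rose 1.16-fold (q = 0.0045), lost its call without KO-sham mouse 1 or 3 or WT-sham mouse 2 or 5 (q between 0.011 and 0.016), and also did so with library-size scaling (q = 0.018). *Rcan1*, which encodes an inhibitor of calcineurin, lay between 59.7 and 72.6 CPM (median 62.1) in WT-sham mice and between 61.2 and 97.7 CPM (median 88.8) in KO-sham mice. Counts per gene do not separate its isoforms. The lowest KO-sham mouse lay within the WT-sham range, and the difference did not pass (log2 fold change 0.40, SE 0.14, q = 0.061).

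Polyamines are small cations made from ornithine and from decarboxylated S-adenosylmethionine. Among 17 genes of their metabolism, 5 fell and 1 rose, and 13 of the 17 had a log2 fold change below 0 (median −0.17). *Odc1*, the gene of the rate-limiting ornithine decarboxylase, lay between 115 and 180.1 CPM (median 142) in WT-sham mice and between 56.95 and 73.4 CPM (median 63.1) in KO-sham mice. The groups were far apart, with a 2.28-fold fall (log2 fold change −1.19, SE 0.10, q = 9.4e-09). *Amd1* and *Amd2* encode S-adenosylmethionine decarboxylase, the source of the other building block, in near-identical copies whose reads are hard to assign. *Amd1* lay between 802 and 1081 CPM (median 889) in WT-sham mice and between 571 and 770.3 CPM (median 648) in KO-sham mice. All KO-sham mice were below all WT-sham mice (log2 fold change −0.48, q = 0.00058), and *Amd2* fell alike (log2 fold change −0.52, q = 0.0011). *Sms*, which encodes spermine synthase, fell 1.25-fold (q = 0.00021) with 1 KO-sham mouse inside the WT-sham range. *Smox*, the gene of the oxidase that turns spermine back into spermidine, lay between 271 and 428 CPM (median 309) in WT-sham mice and between 113 and 175 CPM (median 133) in KO-sham mice. It fell 2.33-fold without overlap (log2 fold change −1.22, SE 0.11, q = 1.5e-08), and the highest WT-sham value was that of mouse 5. *Oaz2*, which encodes an antizyme that sends ornithine decarboxylase to degradation, lay between 83.7 and 101 CPM (median 91.4) in WT-sham mice and between 112 and 128 CPM (median 123) in KO-sham mice. It moved the other way, with a rise of 1.33-fold in which no values overlapped (log2 fold change 0.41, SE 0.05, q = 2.7e-06). Of 18 genes of methionine and S-adenosylmethionine supply, 1 fell (*Adi1*) and 0 rose, with a median of 0.049 that was −0.010 without KO-sham mouse 3 and 0.10 without KO-sham mouse 6, and 2 rose without KO-sham mouse 5.

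Of 20 genes of androgen signalling in muscle, 2 rose (*Tceal7*, *Mybph*) and 6 fell (*Odc1*, *Smox*, *Amd1*, *Mstn*, *Slc25a30*, *Ncoa1*), with a median log2 fold change of −0.10 (−0.16 without KO-sham mouse 5 and −0.066 without KO-sham mouse 4). The call of *Ncoa1* was lost without KO-sham mouse 2, 4, 5 or 6 or WT-sham mouse 1, 5 or 6. Members of this list, like those of the others, were chosen with earlier results of these data known. *Odc1*, *Smox*, *Amd1*, *Mstn*, *Mybph* and *Tceal7* are counted in other lists as well. *Slc25a30*, a mitochondrial carrier gene, lay between 15.2 and 48.7 CPM (median 20.3) in WT-sham mice and between 6.32 and 13.2 CPM (median 10.6) in KO-sham mice. No values overlapped, with a fall of 2.48-fold (log2 fold change −1.31, SE 0.23, q = 0.00028), and WT-sham mouse 5 stood well above the others of its group. Without this mouse the log2 fold change was −0.997. Of 14 genes for estrogen, thyroid hormone and glucocorticoid receptors and their partners, 0 passed by edgeR, DESeq2 or limma-voom and 1 had an unadjusted p under 0.05, beside a median of −0.043 that was 0.0047 without WT-sham mouse 2.

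Myostatin and its relatives are secreted ligands that restrain muscle growth through activin receptors and SMAD proteins. Of 41 genes of the myostatin, activin and BMP pathways, 8 fell and 0 rose, and 34 of the 41 had log2 fold changes below 0 (median −0.18). *Mstn*, the myostatin gene, lay between 131 and 197 CPM (median 145) in WT-sham mice and between 45.6 and 75.5 CPM (median 62.00) in KO-sham mice. The groups did not overlap, and the fall was 2.46-fold (log2 fold change −1.30, SE 0.11, q = 5.7e-09). *Gdf11*, for the ligand closest to myostatin, was less abundant and lay between 17.2 and 26.05 CPM (median 19.9) in WT-sham mice and between 8.39 and 10.2 CPM (median 8.57) in KO-sham mice. The KO-sham values were all under those of WT-sham mice, with a 2.36-fold fall (log2 fold change −1.24, SE 0.09, q = 3.5e-10). *Tgfb3*, a further ligand gene, fell 1.25-fold (q = 0.0019).

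Of the receptor and SMAD genes of this list, 4 passed and fell. *Acvr2a*, a receptor that binds myostatin and activins, lay between 55.2 and 63.8 CPM (median 61.7) in WT-sham mice and between 42.98 and 51.4 CPM (median 48.8) in KO-sham mice. Each KO-sham value was under each WT-sham value (fold change 1.27, q = 0.00025). *Bmpr1b*, a receptor of BMPs, fell 1.421-fold (log2 fold change −0.51, SE 0.076, q = 4.9e-05), from 22.2 CPM in WT-sham and 15.99 CPM in KO-sham mice at the median. *Tgfbr1*, the type I receptor of TGF-beta, fell 1.17-fold (q = 0.0032), and missed the threshold without KO-sham mouse 6 (log2 fold change −0.21, q = 0.011) and with library-size scaling (q = 0.016). *Smad3*, which carries the signal of myostatin to the nucleus, lay between 98.2 and 112 CPM (median 103) in WT-sham mice and between 62.1 and 82.3 CPM (median 73.9) in KO-sham mice. There was again no overlap, with a log2 fold change of −0.51 (q = 4.2e-05). *Tmem100*, which in endothelium is induced by BMP signalling, lay between 19.4 and 35.98 CPM (median 24.7) in WT-sham mice and between 3.84 and 7.79 CPM (median 6.31) in KO-sham mice. The KO-sham mice were lower without overlap, by 4.33-fold (log2 fold change −2.11, SE 0.19, q = 1.4e-08). Of 16 genes for secreted fibre proteins, *Mstn* and *Ccn1* fell and 0 rose (median −0.061, and −0.032 without WT-sham mouse 2).

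Among 26 genes for ubiquitin ligases of muscle atrophy and FOXO factors, 3 fell and 1 rose, beside a median log2 fold change of −0.037 (−0.059 without KO-sham mouse 1 and −0.019 without WT-sham mouse 1). *Fbxo32*, which encodes atrogin-1, lay between 394 and 526 CPM (median 431) in WT-sham mice and between 201 and 355 CPM (median 230.0) in KO-sham mice. KO-sham mouse 2 was the highest of its group, yet no value reached the WT-sham range, and the fall was 1.803-fold (log2 fold change −0.85, SE 0.11, q = 4.4e-06). *Trim63*, for the other classic atrophy ligase MuRF1, had a log2 fold change of −0.27 that did not pass (q = 0.046), with overlapping ranges. The related *Trim54* fell 1.19-fold (q = 0.001), as did the ligase gene *Fbxo31* (1.26-fold, q = 0.0011). In both, KO-sham mouse 1 lay within the WT-sham range. *Foxo4*, a transcription factor of the atrophy programme, rose 1.17-fold (q = 0.0024).

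In the IGF1, AKT and mTOR pathway, which drives growth and protein synthesis, 6 of 32 genes fell and 0 rose, with a median of −0.069 (−0.039 without WT-sham mouse 1). *Igfbp5*, whose product binds IGF1 in the matrix, lay between 189 and 257 CPM (median 215) in WT-sham mice and between 113 and 165 CPM (median 134) in KO-sham mice. The values were apart, with a 1.57-fold fall (log2 fold change −0.65, SE 0.10, q = 4.9e-05). *Rictor*, the defining subunit of the complex mTORC2, fell 1.35-fold (log2 fold change −0.43, SE 0.066, q = 7.2e-05), also without overlap. *Akt1* fell 1.24-fold (q = 0.0028), and missed the threshold without KO-sham mouse 3, WT-sham mouse 4 or WT-sham mouse 5 (q between 0.010 and 0.011). *Irs2*, an adaptor of the insulin receptor, fell 1.36-fold (q = 0.0071) and kept its call in 4 of 12 fits with 1 mouse left out (log2 fold changes −0.51 to −0.39). It lost the call with thinned libraries (q = 0.027) and a replicate block (q = 0.013). *Igfbp6* and *Eif4ebp2* were the others. Without KO-sham mouse 3, WT-sham mouse 4 or WT-sham mouse 5, 3 of the 32 genes fell.

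At the neuromuscular junction, 1 of 24 genes fell and 1 rose (median 0.041, and 0.0051 without WT-sham mouse 5). Over all genes, 2.82% fell and 2.48% rose. *Musk*, which encodes the receptor kinase that gathers acetylcholine receptors under the nerve ending, lay between 47.3 and 68.7 CPM (median 53.3) in WT-sham mice and between 18.2 and 25.3 CPM (median 21.4) in KO-sham mice. WT-sham mouse 5 was the highest, and all KO-sham mice lay under all WT-sham mice, a fall of 2.51-fold (log2 fold change −1.33, SE 0.14, q = 3.6e-07). *Chrnb1*, the beta subunit of the acetylcholine receptor, rose 1.26-fold (q = 0.0066) with overlap, and kept its call in 5 of 12 fits with 1 mouse left out (log2 fold changes 0.26 to 0.40). It was not called by limma-voom (q = 0.012), with library-size scaling (q = 0.018), thinning (q = 0.014) or a replicate block (q = 0.013).

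The dystrophin complex ties the cytoskeleton of the fibre to the matrix around it. Of 30 genes of the complex and its partners, 4 fell and 3 rose, with a median of −0.071. *Nos1*, the neuronal nitric oxide synthase that is held at the membrane by this complex, lay between 33.5 and 40.99 CPM (median 36.1) in WT-sham mice and between 17.01 and 24.01 CPM (median 19.8) in KO-sham mice. The groups were well apart (log2 fold change −0.87, SE 0.092, q = 4.1e-07), a fall of 1.83-fold. *Sntb1*, which encodes a syntrophin, the kind of adaptor that binds this enzyme, lay between 9.996 and 14.04 CPM (median 12.6) in WT-sham mice and between 5.42 and 8.61 CPM (median 6.904) in KO-sham mice. It too fell without overlap, by 1.75-fold (log2 fold change −0.81, SE 0.11, q = 1.1e-05). *Syne1*, counted in this list though its product nesprin-1 lies at the nuclear envelope, fell 1.44-fold (log2 fold change −0.53, SE 0.072, q = 1.5e-05). *Dtnb* was the fourth to fall. *Sgcb* and *Dtna* were among those that rose. With 1 mouse left out at most 2 of the 30 rose. Without WT-sham mouse 5, 1 of the 30 rose and 3 fell, and with library-size scaling 1 rose and 4 fell.

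Of 38 genes for pyruvate entry and the tricarboxylic acid cycle, 12 rose and 2 fell, and the median log2 fold change was 0.19. With library-size scaling 9 rose. The 12 included subunits of pyruvate dehydrogenase (*Pdhx*), isocitrate dehydrogenase (*Idh3a*, *Idh3b*, *Idh3g*), the oxoglutarate complex (*Dlst*), succinyl-CoA ligase (*Sucla2*, *Suclg1*) and succinate dehydrogenase (*Sdha*, *Sdhd*), and also *Pdk1*, for a kinase that inhibits pyruvate dehydrogenase. *Sucla2* lay between 477 and 512 CPM (median 498) in WT-sham mice and between 579 and 718 CPM (median 661) in KO-sham mice. The ranges were apart, with a 1.32-fold rise (log2 fold change 0.40, SE 0.05, q = 3.7e-06). *Sdha*, shared by the cycle and the respiratory chain, lay between 579 and 762 CPM (median 675) in WT-sham mice and between 749 and 908 CPM (median 834) in KO-sham mice. KO-sham mouse 4 lay inside the WT-sham range (log2 fold change 0.31, q = 0.00041). *Fh1*, which encodes fumarase, rose 1.18-fold (q = 0.00096), whereas *Cs*, for citrate synthase, did not pass (log2 fold change 0.14, q = 0.12).

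Of the malic enzyme genes, 2 passed, in opposite directions. *Me3*, for a mitochondrial form, lay between 36.9 and 52.3 CPM (median 50.2) in WT-sham mice and between 64.7 and 78.6 CPM (median 72.3) in KO-sham mice. Each KO-sham mouse was above each WT-sham mouse (log2 fold change 0.57, SE 0.068, q = 2.4e-06). *Me1*, the form of the cytosol, lay between 81.8 and 96.4 CPM (median 88.9) in WT-sham mice and between 63.3 and 70.5 CPM (median 68.5) in KO-sham mice. Here each KO-sham mouse was below each WT-sham mouse (log2 fold change −0.38, SE 0.049, q = 4.6e-06). *Pcx*, for pyruvate carboxylase, fell 1.35-fold (q = 0.0039), and missed the threshold without KO-sham mouse 3 or 6 or WT-sham mouse 4 (q between 0.010 and 0.015).

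In the respiratory chain, 4 of 37 nuclear genes for subunits of complex I rose and 0 fell, and all 37 had log2 fold changes above 0 (median 0.18). With library-size scaling, as without WT-sham mouse 5, 35 of the 37 were above 0 and 1 rose, and with upper-quartile scaling 8 rose. Without KO-sham mouse 2, 3, 4 or 6 or WT-sham mouse 3 or 4, 1 rose as well, without WT-sham mouse 6 it was 2, and without KO-sham mouse 5 or WT-sham mouse 2 it was 7. *Ndufs1*, for a subunit that carries iron-sulfur clusters, lay between 398 and 461 CPM (median 428) in WT-sham mice and between 485 and 581 CPM (median 543) in KO-sham mice. The groups did not overlap (log2 fold change 0.33, SE 0.051, q = 9e-05). Of 41 nuclear genes for complexes III to V, 6 rose and 0 fell, with 39 of the 41 above 0 and a median of 0.19. *Uqcrc2*, a core subunit of complex III, rose 1.203-fold (q = 0.0016), and *Atp5f1*, a subunit of the ATP synthase, 1.21-fold (q = 0.0022). The 13 genes of mitochondrial DNA had a median of −0.026 that was 0.030 without KO-sham mouse 1 and −0.048 without KO-sham mouse 3, with 0 passing by edgeR, DESeq2 or limma-voom and 2 at an unadjusted p under 0.05. Of 77 genes of the mitochondrial ribosome, 5 rose and 0 fell (median 0.093). Without KO-sham mouse 2, 3 or 6 or WT-sham mouse 4 or 5, 2 rose, and without KO-sham mouse 4 or WT-sham mouse 3 it was 3. With library-size scaling 1 rose, and with upper-quartile scaling 7. Between KO-ORX and WT-ORX mice, the medians of complex I, complexes III to V and the mitochondrial ribosome were −0.029, 0.032 and −0.034. The median over all genes was 0.0086 there. In spinalis with empty implants they were 0.085, 0.12 and 0.050 in the same order, beside 0.013 over all genes.

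Fatty acid uptake and beta-oxidation had a median of 0.18 over 41 genes, of which *Acads*, the short-chain acyl-CoA dehydrogenase gene, rose (1.21-fold, q = 0.00051) and 0 fell. Without KO-sham mouse 1, 1 of the 41 fell as well, and without WT-sham mouse 1 or 2, 2 rose. Over all genes, 2.48% rose and 2.82% fell. Of 28 regulators of oxidative metabolism, 1 rose (*Prkag3*) and 1 fell (median −0.0015, and 0.014 with upper-quartile scaling). Of these 0 passed without KO-sham mouse 3, and 1 without KO-sham mouse 1 or 5 or WT-sham mouse 2, 4 or 6, and 0 with library-size scaling. The median was 0.035 without WT-sham mouse 2. The coactivator gene *Ppargc1a* lay between 32.98 and 42.8 CPM (median 35.8) in WT-sham mice and between 28.7 and 34.3 CPM (median 31.4) in KO-sham mice. The ranges overlapped, and its log2 fold change of −0.22 did not pass (q = 0.044).

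Of 35 glycolytic and lactate genes, 5 rose and 2 fell, with a median of −0.028 that was 0.0025 without WT-sham mouse 5 and 0.037 without KO-sham mouse 4. *Slc2a3*, which encodes the high-affinity glucose transporter GLUT3, lay between 12.7 and 19.3 CPM (median 16.2) in WT-sham mice and between 1.46 and 4.48 CPM (median 2.95) in KO-sham mice. The KO-sham mice were under the WT-sham mice without overlap, a 5.31-fold fall (log2 fold change −2.41, SE 0.19, q = 1.3e-09). *Slc16a3*, for the lactate exporter MCT4, lay between 228 and 252 CPM (median 237) in WT-sham mice and between 156 and 227 CPM (median 164) in KO-sham mice. KO-sham mouse 1 nearly reached the WT-sham range, and the groups did not overlap (log2 fold change −0.45, SE 0.076, q = 0.00019). The 5 that rose were *Tpi1*, for triose phosphate isomerase, by 1.28-fold (log2 fold change 0.35, SE 0.05, q = 2.2e-05) and *Pgam2*, for the muscle phosphoglycerate mutase, by 1.202-fold (q = 0.0039, kept in 8 of 12 fits with 1 mouse left out), beside *Eno1*, *Ldhd* and *Pgp*. *Eno1* lost its call without KO-sham mouse 1, 2, 3, 4 or 6 or WT-sham mouse 2, 3, 4, 5 or 6. *Pgp* did so without KO-sham mouse 1 or 3 or WT-sham mouse 1 or 5. Without WT-sham mouse 5 or KO-sham mouse 3, 2 of the 35 rose and 2 fell, and 3 rose with library-size and 7 with upper-quartile scaling. Of 22 genes of glycogen metabolism, *Stbd1* rose and *Pgm1* fell, beside 2.48% and 2.82% of all genes. The median was −0.081, and −0.13 without KO-sham mouse 1. Of the 22, 0 passed without WT-sham mouse 5 or KO-sham mouse 5. Without KO-sham mouse 2, 4 or 6 or WT-sham mouse 1, 3, 4 or 6, 1 passed, as it did with library-size scaling. Of 21 genes for adenine nucleotides and creatine, *Ak4* and *Ampd1* rose (median 0.11, and 0.070 without KO-sham mouse 3), 4 rose without KO-sham mouse 1, and 1 rose without KO-sham mouse 4 or 6 or WT-sham mouse 1 or 4. *Ampd1*, the AMP deaminase of skeletal muscle, lay between 844 and 1051 CPM (median 929) in WT-sham mice and between 1056 and 1349 CPM (median 1288) in KO-sham mice. The values did not overlap, with a 1.32-fold rise (log2 fold change 0.40, SE 0.062, q = 7.7e-05).

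**Figure D2:**
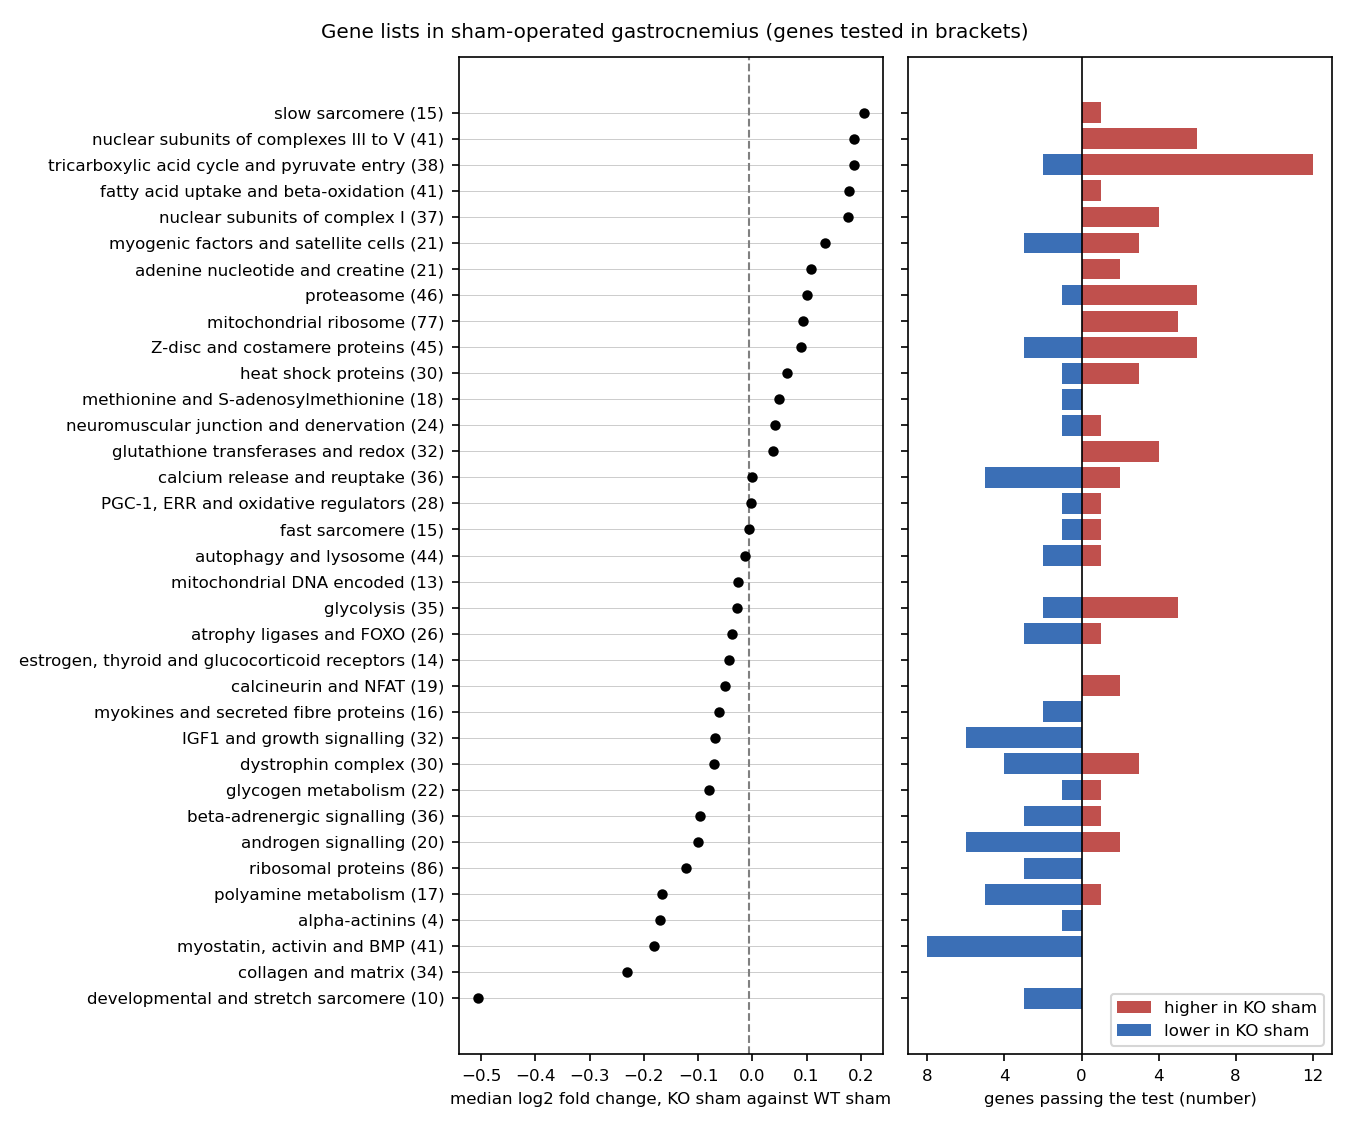
Gene lists by their median log2 fold change between KO-sham and WT-sham mice (left, horizontal axis, dashed line at the median of all genes) and by the number of genes that rose (red) or fell (blue) at q of at most 0.01 (right). The tricarboxylic acid cycle had the most genes that rose (12), and the myostatin, activin and BMP list the most that fell (8).

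Of 86 ribosomal protein genes, 3 fell, beside 2.82% of all genes, and 0 rose, and 71 of the 86 had log2 fold changes below 0 (median −0.12). *Rps20*, of the small subunit, lay between 135 and 184 CPM (median 167) in WT-sham mice and between 103 and 131 CPM (median 117) in KO-sham mice. The groups were apart (log2 fold change −0.48, SE 0.086, q = 0.0004), and *Rpl8* and *Rplp2* were the others to fall. *Rplp2* lost its call without KO-sham mouse 1, 2, 3 or 5 or WT-sham mouse 1, 2, 3 or 4. Without KO-sham mouse 4, 10 fell, and without WT-sham mouse 4, 1 fell. Of 46 proteasome genes, 6 rose and 1 fell (median 0.10), against 4 and 1 with library-size and 9 and 1 with upper-quartile scaling. *Psmc4*, an ATPase of the regulatory particle, lay between 66.5 and 73.9 CPM (median 70.8) in WT-sham mice and between 75.9 and 88.3 CPM (median 83.97) in KO-sham mice. No values overlapped (log2 fold change 0.24, SE 0.041, q = 0.0002). *Psmd8*, of the same particle, lay between 194 and 226 CPM (median 217) in WT-sham mice and between 138 and 169 CPM (median 155) in KO-sham mice. It fell 1.38-fold, also without overlap (log2 fold change −0.47, SE 0.054, q = 1.6e-06). Of 44 genes for autophagy and the lysosome, 1 rose (*Map1lc3b*) and 2 fell (median −0.013, 0.0016 with upper-quartile scaling and 0.0085 without WT-sham mouse 1). With library-size scaling 0 rose, and with upper-quartile scaling 2. Over all genes, 2.48% rose and 2.82% fell. *Map1lc3b* lost its call without KO-sham mouse 1, 2, 3 or 5 or WT-sham mouse 1, 3, 4 or 5. *Npc1*, whose product moves cholesterol out of lysosomes, lay between 63.5 and 84.6 CPM (median 70.4) in WT-sham mice and between 36.5 and 51.1 CPM (median 42.2) in KO-sham mice. Each KO-sham value was lower than each WT-sham value (log2 fold change −0.75, SE 0.088, q = 1.6e-06).

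Of 30 heat shock genes 3 rose (*Dnaja4*, *Hspa1l*, *Hspd1*) and *Hsph1* fell (median 0.065), with 2 higher and 0 lower without KO-sham mouse 2, 3 or 6 or WT-sham mouse 4, 5 or 6. Of 32 glutathione and redox genes 4 rose (*Gstk1*, *Prdx2*, *Sod2*, *Gstm2*) and 0 fell (median 0.038, and 0.016 without WT-sham mouse 6), against 6 and 1 without KO-sham mouse 5. *Gstm2*, a glutathione transferase gene, lay between 14.4 and 29.00 CPM (median 24.5) in WT-sham mice and between 30.5 and 35.3 CPM (median 33.7) in KO-sham mice. No values overlapped (log2 fold change 0.50, SE 0.11, q = 0.0042), and without KO-sham mouse 6 the adjusted p was 0.011. Of 34 collagen and matrix genes 0 passed by edgeR or limma-voom and 2 by DESeq2, while 12 had an unadjusted p under 0.05 and 30 a log2 fold change below 0 (median −0.23). Without KO-sham mouse 5, 4 of them fell, and without WT-sham mouse 6, 1 fell. Of 19 clock genes *Rora* and *Cry1* fell (median −0.18, and −0.11 without KO-sham mouse 5), with *Rora*, a nuclear receptor of the clock, at 233 CPM in WT-sham and 182 CPM in KO-sham mice at the median (log2 fold change −0.44, SE 0.068, q = 7e-05). Of 19 immediate early and stress genes 16 were below 0 (median −0.21, and −0.097 without WT-sham mouse 6), and *Gadd45b* alone passed, as a rise that was lost without KO-sham mouse 3, 4, 5 or 6 or WT-sham mouse 1, 2, 4 or 6, and with library-size scaling. The call of *Cry1* was lost without KO-sham mouse 3 or 4 or WT-sham mouse 4.

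*Grk2* had the smallest p of all genes after *Actn3*. It encodes a kinase that desensitises beta-adrenergic and other G protein-coupled receptors, and it lay between 37.3 and 43.7 CPM (median 41.1) in WT-sham mice and between 106 and 135 CPM (median 122) in KO-sham mice. The groups were far apart, with a 2.97-fold rise (log2 fold change 1.57, SE 0.057, q = 9.9e-17). Of 36 genes of beta-adrenergic signalling, *Grk2* alone rose and 3 fell (*Prkacb*, *Adcy2*, *Pde7a*), with a median of −0.096. With 1 mouse left out at most 2 fell. Without KO-sham mouse 3, 4, 5 or 6 or WT-sham mouse 4, 1 of the 36 fell.

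*Grk2* lies on chromosome 19, within 2 Mb of *Actn3*. Of the 134 tested genes within that distance, 4 differed (2.99%): *Grk2*, *Mrpl49* and *Arl2* rose and *Pcx* fell. Between 2 and 5 Mb it was 2 of 68, between 5 and 10 Mb 4 of 50, on the rest of the chromosome 16 of 323, and on the other chromosomes 5.34% of the genes. At q of at most 0.05, 15 of the 134 passed, and 1774 of 16859 on the other chromosomes. *Mrpl49*, for a protein of the mitochondrial ribosome, lay between 20.8 and 22.04 CPM (median 21.5) in WT-sham mice and between 22.99 and 28.2 CPM (median 25.6) in KO-sham mice. *Arl2*, a small GTPase gene, lay between 20.3 and 22.8 CPM (median 20.96) in WT-sham mice and between 23.2 and 28.8 CPM (median 24.1) in KO-sham mice. In both the groups were apart by little, and the calls (log2 fold changes 0.25 and 0.25) were kept in 6 and 5 of 12 fits with 1 mouse left out. *Mrpl49* also lost its call with library-size scaling (q = 0.028) and a replicate block (q = 0.011), and *Arl2* with library-size scaling (q = 0.013), a block (q = 0.011) and thinning (q = 0.031). The labels do not say how the KO allele was made, and the loss of *Actn3* and other sequence differences near it cannot be told apart here.

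*E2f2*, a transcription factor of the cell cycle, lay between 2.07 and 2.53 CPM (median 2.26) in WT-sham mice and between 6.88 and 9.91 CPM (median 8.67) in KO-sham mice. Its lowest KO-sham value was more than the highest WT-sham value (log2 fold change 1.92, SE 0.11, q = 5.8e-12), a 3.79-fold rise. *Tceal7*, of the family of transcription elongation factor A-like genes on chromosome X, lay between 15.3 and 26.8 CPM (median 22.2) in WT-sham mice and between 42.2 and 138 CPM (median 85.3) in KO-sham mice. None of the KO-sham mice reached down to the WT-sham range (log2 fold change 2.03, SE 0.17, q = 8.3e-09). Its exons overlap *Bex1* on the opposite strand. *Tceal5*, of the same family, rose 1.88-fold (log2 fold change 0.91, SE 0.11, q = 4.5e-06). *Atrx*, a chromatin remodeller also on chromosome X, lay between 112 and 123 CPM (median 119) in WT-sham mice and between 144 and 157 CPM (median 152) in KO-sham mice. No values overlapped, and it rose 1.28-fold (q = 4.5e-07). *Zfp641*, a zinc finger gene, rose 1.73-fold (q = 1.5e-08), *Rps6kc1* 1.81-fold (q = 1.6e-08), *Armcx4* 1.66-fold (q = 1e-07) and *Btbd8* 2.33-fold (q = 2.3e-07), each without overlap. *Srrm4os*, a transcript opposite to *Srrm4*, rose 3.08-fold (q = 2.3e-07), and *Srrm4* rose as well.

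Of 21 myogenic and satellite cell genes, 3 rose (*Tceal7*, *Tceal5*, *Myf5*) and 3 fell (*Eya1* and *Eya4* among them), with a median of 0.13. Without WT-sham mouse 4, 2 rose and 1 fell, and without KO-sham mouse 6 the median was 0.074. *Myf5*, a myogenic factor of satellite cells, lay between 1.15 and 2.37 CPM (median 1.62) in WT-sham mice and between 2.43 and 3.57 CPM (median 2.99) in KO-sham mice. The groups were apart, with a call (log2 fold change 0.75, q = 0.0053) that was kept in 4 of 12 fits with 1 mouse left out and lost with library-size scaling (q = 0.013). *Pax7*, which defines satellite cells, lay between 0.896 and 1.51 CPM (median 1.26) in WT-sham mice and between 1.16 and 2.43 CPM (median 1.698) in KO-sham mice. The groups overlapped (log2 fold change 0.54, q = 0.11).

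*Ybx3*, which encodes a cold shock domain protein that binds DNA and RNA, had the smallest p of the falls after *Actn3* with predicted genes left out. It lay between 693 and 827 CPM (median 740.0) in WT-sham mice and between 377 and 436 CPM (median 405) in KO-sham mice. The groups were far apart for a change of 1.84-fold (log2 fold change −0.88, SE 0.052, q = 5.8e-12). *Hsd17b7*, an enzyme gene of cholesterol and estradiol synthesis, lay between 12.4 and 14.4 CPM (median 13.4) in WT-sham mice and between 4.69 and 5.54 CPM (median 4.87) in KO-sham mice. The 6 KO-sham values were under the WT-sham range (log2 fold change −1.44, SE 0.088, q = 1.4e-11). *Ttll7*, for an enzyme that adds glutamates to tubulin, lay between 551 and 629.7 CPM (median 579) in WT-sham mice and between 339 and 376 CPM (median 362) in KO-sham mice. It fell 1.62-fold without overlap (log2 fold change −0.69, SE 0.044, q = 2.1e-11). *Pla2g7*, the gene of a secreted hydrolase of platelet-activating factor, lay between 58.5 and 83.8 CPM (median 68.6) in WT-sham mice and between 12.8 and 24.4 CPM (median 16.5) in KO-sham mice. The fall of 3.97-fold left no overlap (q = 1.5e-10), and its exons overlap a gene on the opposite strand.

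*Neto2*, for an auxiliary subunit of kainate receptors, lay between 28.9 and 84.8 CPM (median 34.9) in WT-sham mice and between 2.68 and 5.51 CPM (median 4.102) in KO-sham mice. WT-sham mouse 5 had more than the other WT-sham mice, and all KO-sham mice lay under all of them (log2 fold change −3.37, SE 0.24, q = 1.6e-10). *Pld5*, of the phospholipase D family, lay between 5.03 and 7.53 CPM (median 5.47) in WT-sham mice and between 0.113 and 0.854 CPM (median 0.432) in KO-sham mice. It fell 13.2-fold without overlap (q = 1.4e-10). *Kcnab1*, a beta subunit of potassium channels, fell 2.33-fold (q = 9.9e-10). *Spns2*, the exporter of sphingosine 1-phosphate, lay between 50.9 and 75.7 CPM (median 56.7) in WT-sham mice and between 20.9 and 29.8 CPM (median 26.4) in KO-sham mice. No KO-sham mouse reached the WT-sham range (log2 fold change −1.18, SE 0.09, q = 9.9e-10). *Abcg2*, a drug and urate efflux pump, went the other way and rose 1.421-fold (q = 5.9e-07). *Plekhd1* was near the detection limit, between 0.764 and 1.96 CPM (median 0.954) in WT-sham mice and between 0 and 0.119 CPM (median 0.0927) in KO-sham mice. The groups did not overlap, and with 0 counts in 1 KO-sham library no fold change is given.

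*Cd28* and *Cd3e*, genes of T cells, both rose. *Cd28*, a co-stimulatory receptor, lay between 4.55 and 7.599 CPM (median 5.84) in WT-sham mice and between 20.5 and 30.6 CPM (median 23.8) in KO-sham mice. The groups were apart by a wide margin (log2 fold change 2.05, SE 0.14, q = 7e-11). *Cd3e*, a chain of the T cell receptor complex, lay between 0.729 and 1.83 CPM (median 1.32) in WT-sham mice and between 2.02 and 4.57 CPM (median 2.95) in KO-sham mice. It rose 2.43-fold at a level near the detection limit (q = 0.00019), and its exons overlap *Gm48719*, which also rose (log2 fold change 1.34). Of the 10 lymphocyte markers *Cd3e* is the only one in the count table, so the other 9 have no value here.

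Markers of other cell types were summed over each list. Fibroblast markers (10 of 10 tested, *Gsn* the most abundant) summed to between 3695 and 5277 CPM in WT-sham (median 4075) and between 2996 and 4183 CPM in KO-sham mice (median 3293). The ranges overlapped, and 8 of the 10 had log2 fold changes below 0 (median −0.24). *Gsn*, for the actin-severing protein gelsolin, fell 1.22-fold (q = 0.0087), a call kept in 3 of 12 fits with 1 mouse left out and lost with library-size (q = 0.025) and upper-quartile scaling (q = 0.012). Tendon markers (8 of 8, *Thbs4* the most abundant) summed to between 388 and 1217 CPM in WT-sham and between 242 and 809.7 CPM in KO-sham mice. The ranges overlapped, 0 of the 8 passed by edgeR, DESeq2 or limma-voom and 5 had an unadjusted p under 0.05, and all 8 had log2 fold changes below 0 (median −0.69, and −0.43 without WT-sham mouse 5, where 2 were above 0, and −1.07 without KO-sham mouse 5). Without KO-sham mouse 5, 2 of the 8 fell, and without WT-sham mouse 6, 1 fell. Macrophage markers (10 of 10, *Mrc1* the most abundant) summed to between 177 and 210.4 CPM in WT-sham and between 137 and 207 CPM in KO-sham mice. The ranges overlapped, and all 10 had log2 fold changes below 0 (median −0.30). *Csf1r* alone passed as a fall (1.22-fold, q = 0.0075, kept in 4 of 12 fits with 1 mouse left out), and was lost with library-size scaling (q = 0.016), upper-quartile scaling (q = 0.012) and thinning (q = 0.010). Without KO-sham mouse 4, 4 macrophage and 2 fibroblast markers fell. These values stand beside the collagen list, whose median was also below 0, and their part in any fall was not tested. Between KO-ORX and WT-ORX mice, the medians were 0.033 (fibroblast), 0.14 (tendon), −0.12 (macrophage) and 0.20 (collagen). In spinalis with empty implants they were −0.11, 0.47, 0.13 and 0.23 in the same order. In whole muscle, fewer cells of a type and less RNA per cell cannot be told apart.

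The other markers overlapped between the genotypes as sums. Muscle fibre markers (11 of 11, *Ttn* the most abundant) summed to a median of 221418 CPM in WT-sham and 223078 CPM in KO-sham mice and *Acta1* alone fell. The medians were 745 and 818 CPM for 6 slow fibre, 1043 and 1086 CPM for 10 adipocyte, 351 and 379.9 CPM for 10 endothelial, and 676 and 720.0 CPM for 8 pericyte and smooth muscle markers. No gene of these 4 lists passed by edgeR, DESeq2 or limma-voom, and 3 had an unadjusted p under 0.05. They were 405 and 404 CPM for 6 red blood cell, 111 and 98.4 CPM for 8 Schwann cell, 15.2 and 16.1 CPM for 5 of 8 neutrophil and mast cell markers, and 1.82 and 1.72 CPM for *Krt10*, the 1 of 7 skin and hair markers in the table. No gene of these passed by the 3 tools either, and 0 had an unadjusted p under 0.05. The median log2 fold change of the neutrophil and mast cell markers was 0.21, 0.050 without KO-sham mouse 4 and −0.030 by limma-voom. For 6 satellite cell markers the medians were 41.1 and 40.2 CPM, and *Myf5* passed.

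Exons of 37 of the 113 named genes overlap a gene on the opposite strand, and reads of that gene may be held in their counts if the strand was not used. Besides those marked above, these were *Spns2*, *Npc1*, *Nos1*, *Fbxo32*, *Me1*, *Me3*, *Neto2*, *Kcnab1*, *Xirp2*, *Nmrk2*, *Tpi1*, *Rora* and *Ndufs1*. The same held for *Srrm4os*, *Acvr2a*, *Myl4*, *Trim54*, *Des*, *Uqcrc2*, *Tgfb3*, *Atp5f1*, *Cap2*, *Vcl*, *Cacna1s*, *Mrpl49*, *Arl2*, *Irs2*, *Csf1r*, *Actn1*, *Ttn*, *Myh7* and *Actn4*. The share of such reads was not tested.

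In the ORX mice, which share no animal with the sham groups, the genotype difference was measured again. Of all genes, 188 were higher (1.07%) and 478 lower (2.73%) in KO-ORX than in WT-ORX mice. Of the 434 genes that rose in KO-sham mice, 110 were also higher in KO-ORX mice (25.3%) and 398 had the same sign. Of the 494 that fell, 238 were also lower (48.2%) and 466 had the same sign. None passed in the opposite direction. The difference was smaller in ORX than in sham mice for 738 of the 928 genes, which were chosen for a clear difference in sham mice. *Ybx3* (log2 fold change −0.87), *Grk2* (1.40), *E2f2* (1.74) and *Gdf11* (−1.15) were close to their sham values, and *Sln* was at 2.69, with an interaction that did not pass (q = 0.54). *Mybph* (0.073, q = 0.93) and *Ampd1* (−0.046, q = 0.77) did not pass in ORX mice, while their interaction did not pass either (q = 0.06 and 0.059).

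Whether the genotype difference itself differed between sham and ORX mice was tested as an interaction at q of at most 0.05. It passed for 4 of the 17514 genes (0.0228%), 3 of them among the 928. Each alternative was counted among its own called genes, and it passed for 69 of 1290 with DESeq2, 7 of 930 with limma-voom and 5 of 921 with a replicate block in the model. The log2 fold change between KO and WT was −0.69 in sham and −0.16 in ORX mice for *Ttll7*, and −1.18 and −0.41 for *Spns2*. For *Efcab6*, a gene with EF-hand motifs, it was 0.47 and 0.032. *Snora78*, a small nucleolar RNA, lay between 24.97 and 37.1 CPM (median 32.9) in WT-sham mice and between 20.2 and 39.3 CPM (median 29.9) in KO-sham mice. The sham groups overlapped fully (log2 fold change −0.074, q = 0.83), against 1.29 in ORX mice. For *Odc1* (−1.19 and −0.46) the interaction did not pass (q = 0.059), nor for *Slc2a3* (−2.41 and −1.14, q = 0.08).

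In spinalis of females with empty implants, another muscle, sex and age, 286 of the 16642 genes tested in both tables were higher (1.72%) and 421 lower (2.53%) in KO than in WT mice. Of the 431 genes that rose in KO-sham gastrocnemius and were tested there, 82 were also higher (19%) and 1 lower. Of the 489 that fell, 174 were also lower (35.6%) and 0 higher. The genes that passed in the same direction in the sham, ORX and empty-implant comparisons numbered 186, with 54 higher and 132 lower. Among these were *Grk2* (log2 fold change 1.05 in spinalis), *E2f2* (1.86), *Ybx3* (−0.85), *Mstn* (−0.99), *Gdf11* (−1.04), *Nos1* (−0.85), *Fbxo32* (−0.81), *Musk* (−0.72) and *Smox* (−0.82). *Slc2a3* (0.45, q = 0.37), *Cacng1* (0.023, q = 0.92), *Me1* (0.025, q = 0.96) and *Myot* (0.21, q = 0.18) did not pass in spinalis, and whether the muscles differed was not tested. *Actn2* was higher there in KO mice (0.64, q = 0.0031). With empty implants, *Grk2* lay between 41.8 and 86.7 CPM (median 44.5) in WT and between 103 and 120 CPM (median 109) in KO mice. In WT mice with DHT it lay between 39.0 and 86.3 CPM (median 44.1). *Actn3* lay between 8592 and 10353 CPM in the WT mice with empty implants. What sets the highest WT values of *Grk2* apart was not tested.

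The androgen response of the same genes was read from WT spinalis, between 6 mice with DHT and 5 with empty implants. Over all 16642 genes, 1099 were higher (6.6%) and 771 lower (4.63%) with DHT. Of the 489 genes lower in KO-sham gastrocnemius, 195 were higher with DHT (39.9%) and 28 lower. Of the 431 genes higher in KO-sham gastrocnemius, 35 were higher with DHT and 99 lower (23.0%). The genotype and the androgen differences thus had opposite signs more often than the same sign among the genes that passed in both. Of the 54 genes higher in KO mice in the sham, ORX and empty-implant comparisons alike, 11 were higher and 11 lower with DHT. Of the 132 lower ones 53 were higher and 17 lower. These genes were chosen in part by the 5 WT mice with empty implants, which also serve the DHT comparison. Shared mice can push both differences the same way. The counts without any change were not computed, so nothing is concluded from these numbers. *Odc1* lay between 52.4 and 78.1 CPM (median 58.3) with empty and between 253 and 355 CPM (median 305) with DHT implants. *Smox* lay between 76.4 and 103 CPM (median 94.3) with empty and between 599 and 1009 CPM (median 762) with DHT implants. The WT groups were apart in both, with log2 fold changes of 2.32 and 3.06 for DHT against −1.19 and −1.22 for KO-sham against WT-sham.

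The same opposition was seen for other genes that fell in KO-sham mice. With DHT, *Amd1* was higher by 3.45 on the log2 scale, *Neto2* by 4.23, *Slc2a3* by 3.14, *Tmem100* by 2.78, *Musk* by 2.04, *Spns2* by 2.14 and *Slc25a30* by 3.96. *Mstn* (1.10), *Gdf11* (0.96), *Itpr1* (0.96), *Npc1* (1.32), *Psmd8* (1.25) and *Nmrk2* (2.32) also rose with DHT. Of the genes that rose in KO-sham mice, *Mybph* (−4.59), *Sln* (−1.76), *E2f2* (−1.54), *Srrm4os* (−2.78) and *Gstm2* (−2.51) fell with DHT. Other genes did not follow this order. *Kcnab1* (−1.29), *Actc1* (−2.91), *Sntb1* (−1.28) and *Pcx* (−1.62) fell with DHT as they did in KO-sham mice, and *Oaz2* (0.31) rose in both. *Grk2* (−0.064, q = 0.86), *Ybx3* (0.17, q = 0.12), *Hsd17b7* (−0.14, q = 0.52), *Abcg2* (0.03, q = 0.83) and *Sucla2* (0.017, q = 0.91) did not pass.

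**Figure D3:**
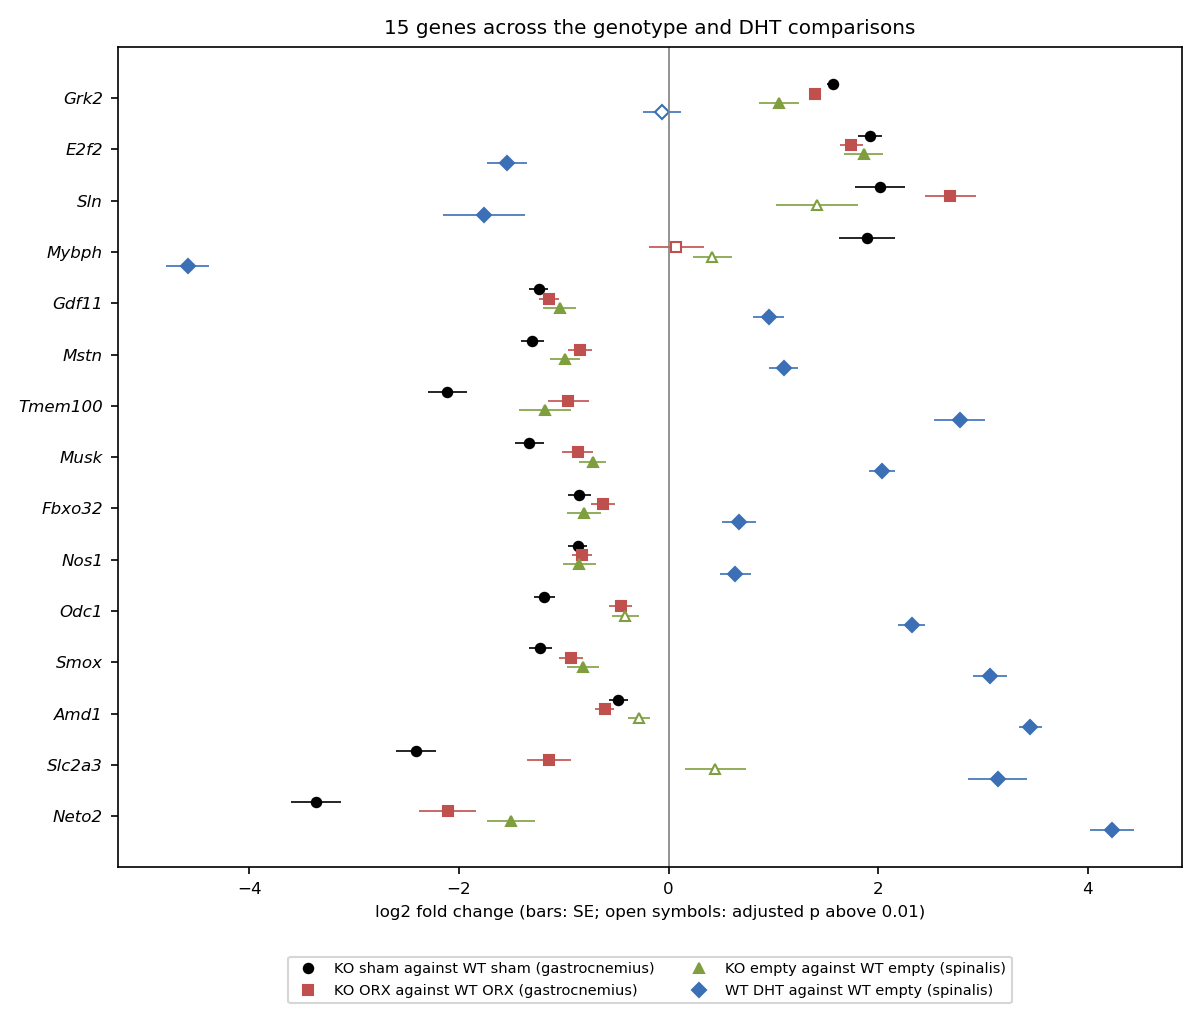
Log2 fold changes (horizontal axis, bars show the SE) of 15 genes for KO against WT in sham mice (black), in ORX mice (red) and in spinalis with empty implants (green), and for DHT against empty implants in WT spinalis (blue), with open symbols where q is above 0.01. For *Musk* the genotype values are −1.33, −0.87 and −0.72, and the DHT value is 2.04.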

How the data were processed

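The deposited values are counts of reads per gene, whole numbers without normalization, which the authors made from stranded total RNA libraries with STAR 2.7.1b, SAMtools 1.9, Picard 2.20.2 and featureCounts of Subread 2.0.0 (genome build GRCm39 per the labels). Whether counting used the strand is not stated. Annotation came from GENCODE M21, and no coordinates are given because its build differs. Counts were fitted with edgeR 4.0.16 in R 4.3.3 (TMM, a mean for each of 4 groups, quasi-likelihood F test, Benjamini-Hochberg). The filter of 0.5 CPM in at least 2 libraries removed 0 genes. Spinalis was fitted separately, its columns matched to the labels by group. The sixth KO-ORX sample has no column and was not used.

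The 113 named genes include *Actn3*, and the 12 with the smallest p and the 8 with the largest fold change in each direction among non-overlapping genes with a mean of at least 1 CPM (predicted genes left out). Genes within 2 Mb of *Actn3*, genes the study names, interaction genes and some members of gene lists were added. Results of some genes that this rule names are not reported here. Members and lists were chosen with earlier results of these data known. Alternatives were DESeq2 1.42.0, limma-voom 3.58.1, other scalings, filters and thresholds, thinning, a replicate block, fitting only the groups compared and leaving out each mouse. In simulated counts, 33 of 33 genes lowered 4-fold, 27 of 33 raised 2-fold and 15 of 34 raised 1.5-fold were recovered, with 1 false call. Figures were drawn with matplotlib 3.10.9.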

Additional observations from a re-analysis of the deposited data

Results flagged for a closer look

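Mice were compared with the others of their own group for each named gene, summed marker list and principal component. In 264 groups examined, 31 held a value far from the rest, where chance sets about 1 in 20 groups apart. The groups share the same mice and are not independent, so an excess over that rate was not tested. WT-sham mouse 5 accounted for 13 of the 31 and KO-sham mouse 1 for 7. What sets these mice apart was not tested.

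WT-sham mouse 5 had the highest CPM of its group for *Neto2* (84.8), *Spns2* (75.7), *Smox* (428), *Musk* (68.7), *Syne1* (258), *Slc25a30* (48.7), *Tgfb3* (44.6), *Pld5* (7.53) and *Plekhd1* (1.96), and the lowest for *Me3* (36.9). It also stood apart on the second principal component (10.8) and in the summed fibroblast (5277 CPM) and tendon markers (1217 CPM).

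KO-sham mouse 1 stood apart in CPM for *Myh4* (64647), *Acta1* (14486), *Slc16a3* (227), *Trim54* (144), *Vcl* (49.3) and *Fbxo31* (47.6), and in the summed muscle fibre markers (343469 CPM). WT-sham mouse 1 did so for *Ttn* (129266), *Myh4* (59990.4), *Tgfbr1* (68.8), *Acvr2a* (55.2) and the muscle fibre markers (282578 CPM). The others were KO-sham mouse 2 for *Fbxo32* (355), *Ppp3r1* (102) and *Myl4* (6.83), WT-sham mouse 4 for *Pcx* (62.9), and KO-sham mouse 4 for the summed adipocyte (1472 CPM) and macrophage markers (207 CPM).

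The genotype difference in log2 fold change differed between ORX and sham mice, by the interaction test at q of at most 0.05, for *Snora78* (1.36), *Spns2* (0.76), *Ttll7* (0.53) and *Efcab6* (−0.44).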

How the results depend on the processing

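The number of genes that differed between KO-sham and WT-sham mice was 928, and between 690 and 954 with 1 mouse left out. It was 1290 with DESeq2, 930 with limma-voom, 722 with library-size scaling, 997 with upper-quartile scaling and 1838 at q of at most 0.05. The share that rose was 46.8%, against 38.5% with library-size and 54.6% with upper-quartile scaling. At q of at most 0.05, 677 genes were shared with the ORX comparison, 564 with the empty-implant comparison and 715 with the DHT response. Members of the pathway lists that differed numbered 133, between 101 and 142 with 1 mouse left out and 239 at q of at most 0.05, where 15 genes near *Actn3* differed.

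The interaction passed for 3 of the 928 genes, and, among the genes that each alternative called, for 69 of 1290 with DESeq2, 7 of 930 with limma-voom and 5 of 921 with a replicate block. Leaving out 2 mice that stood apart, each alone, was added after the data were seen, and it passed for 2 genes without KO-sham mouse 1 and for 5 without WT-sham mouse 5. The other mice were not left out for this count. The cause was not tested.

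Of the 113 named genes, 3 changed sign, none of which passed the test. With 1 mouse left out, the log2 fold change of *Ttn* was between −0.0026 and 0.30, of *Actn4* between −0.10 and 0.0033, and of *Snora78* between −0.17 and 0.017. With 1 mouse left out, 17 of the 101 that passed among these 113 genes lost their call in at least 1 fit, as did 9 with library-size scaling. Other list members given in the text are outside the 113. Many of them also lost their call in at least 1 such fit, among them *Eno1*, *Pde7a*, *Adcy2*, *Sgcb*, *Dtna*, *Dtnb*, *Hspd1*, *Hsph1*, *Rplp2*, *Ncoa1*, *Eif4ebp2*, *Eya4* and *Sdhd*. The KO-sham libraries were smaller, which limits the precision for genes of low count.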
